A study of Mus musculus with 35 samples.

Results

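The heterogeneous nuclear ribonucleoproteins (hnRNPs) and the polypyrimidine tract-binding (PTB) proteins were followed as 10 named genes, Ptbp1, Ptbp2, Ptbp3, Hnrnpl, Hnrnpm, Hnrnpa2b1, Hnrnpa1, Hnrnpd, Hnrnph1 and Hnrnpk. They were taken by name and were 10 of the 24411 genes in the gene tables. Their annotated transcripts were 118 of the 110379 transcripts in the transcript tables, of which 56 carried the protein-coding biotype, 29 the retained-intron biotype, 20 the processed-transcript biotype and 13 the nonsense-mediated decay biotype. All 10 genes had enough counts to be tested in every comparison. In GRCm38, the genes on which most results turn are Ptbp1 (ENSMUSG00000006498, chr10:79854427-79864771, plus strand), Ptbp2 (ENSMUSG00000028134, chr3:119718742-119784466, minus strand), Hnrnpl (ENSMUSG00000015165, chr7:28808541-28822266, plus strand), Hnrnpa2b1 (ENSMUSG00000004980, chr6:51460932-51469894, minus strand) and Hnrnpm (ENSMUSG00000059208, chr17:33646233-33686860, minus strand).

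These proteins bind nascent pre-mRNA and decide which exons are joined, and several also act on the stability, export or translation of mRNA. Many of their own genes are regulated through nonsense-mediated RNA decay (NMD): when the protein is abundant, it shifts splicing of its own transcript, or that of a relative, to a form with an early stop codon, and the NMD machinery destroys that form. SMG6 is the endonuclease of this machinery, and the PTB family is known for a switch in which PTBP1 represses an exon of Ptbp2.

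The germ cells came from adult mice of mixed C57Bl/6J and SV129 background with loxP sites around exon 9 of Smg6. The cKO mice were Smg6(fx/fx);Ngn3Cre+, so that a transgene under the Ngn3 promoter deleted the exon in early postnatal spermatogonia, and all later germ cells of a recombined lineage carried the deletion. Controls were littermates without Cre, Smg6(fx/fx) or Smg6(fx/wt), and which of the 2 a library came from is not given in the sources used here. Pachytene spermatocytes (Spc) and haploid round spermatids (RS) were enriched by sedimentation through a BSA gradient, which leaves other cells in the fractions, and gave 3 poly(A) libraries per genotype and cell type. Chromatoid bodies (CBs), the large cytoplasmic RNA granules of spermatids, were pulled down from pooled testes with an antibody to DDX4 and gave 3 cKO and 4 control libraries of total RNA.

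Sequences of 4 of the genes show how an early stop codon arises. Ptbp1, Ptbp2 and Hnrnpk do so by skipping an exon. In each window below, read from the RefSeq genome (GRCm38.p6) with exons from GENCODE vM21, capitals mark the exon and lower case the 60 intron bases before it and the 20 after it, 5′ to 3′ on the transcribed strand. The Ptbp1 exon lies at chr10:79862014-79862047 on the plus strand and the Ptbp2 exon at chr3:119724612-119724645 on the minus strand. Hnrnpk carries an exon of the same kind at chr13:58397753-58397796 on the minus strand.
Ptbp1 exon: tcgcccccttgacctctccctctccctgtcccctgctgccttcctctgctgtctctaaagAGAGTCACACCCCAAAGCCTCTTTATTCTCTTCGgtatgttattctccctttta
Ptbp2 exon: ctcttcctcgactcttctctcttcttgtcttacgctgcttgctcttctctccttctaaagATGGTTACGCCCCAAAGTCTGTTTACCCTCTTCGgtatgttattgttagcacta
Hnrnpk exon: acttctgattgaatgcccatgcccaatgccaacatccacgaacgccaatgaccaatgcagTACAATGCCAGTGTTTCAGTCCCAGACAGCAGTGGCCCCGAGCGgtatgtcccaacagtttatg

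The Ptbp1 and Ptbp2 exons are both 34 bases long and identical at 26 of 34 positions (76.5%), and the Hnrnpk exon is 44 bases long. Neither length is a multiple of 3, so that skipping the exon shifts the reading frame. The motif TCTT, which the PTB proteins are known to bind, was counted on the transcribed strand, overlapping matches included, in the 100 bases before each exon. It occurred 6 times before the Ptbp2 exon, and 0.223% of 180112 internal exons of protein-coding transcripts had at least as many. It occurred 1 time before the Ptbp1 exon, where 63.7% of the internal exons had at least as many, and 0 times before the Hnrnpk exon. These matches describe the letters of the windows and not binding.

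The next lines give the spliced sequence of annotated transcripts that lack the exon, from 20 bases before the new junction to the stop codon, which is in capitals. The frame ended at a TGA that began 24 bases after the junction in Ptbp1-201 and Ptbp2-208 and 18 bases after it in Hnrnpk-203. Hnrnpl has the opposite arrangement. Its transcript Hnrnpl-213 includes an extra exon of 70 bases at chr7:28817335-28817404 on the plus strand, and the frame meets a TGA 56 bases into it, in capitals below.
Ptbp1-201: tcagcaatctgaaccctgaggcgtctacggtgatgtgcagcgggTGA
Ptbp2-208: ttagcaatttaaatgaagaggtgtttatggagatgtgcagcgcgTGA
Hnrnpk-203: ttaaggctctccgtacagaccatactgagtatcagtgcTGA
Hnrnpl exon: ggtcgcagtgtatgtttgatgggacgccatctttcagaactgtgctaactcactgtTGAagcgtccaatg

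The stop codon of Ptbp1-201 and that of Ptbp2-208 each lie 361 bases before the last exon junction, that of Hnrnpk-203 lies 238 bases before it and that of Hnrnpl-213 lies 842 bases before it. An exon junction well downstream of the stop codon is a known trigger of NMD. Ptbp3 has a transcript of the same biotype, Ptbp3-213, which skips an exon of 170 bases at chr4:59517586-59517755 on the minus strand and meets a TGA 20 bases after the junction.

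Counts on genes and transposable elements were 38129415 to 49940226 per Spc or RS library and 3965541 to 16699210 per CB library. Smg6 itself, on chr11:74925823-75164448, gave no call in this gene-level count: it stood at 182, 189 and 189 CPM (a gene's count relative to the scaled total of its library) in cKO Spc against 109, 166 and 172 CPM in control Spc (log2 fold change 0.22, adjusted p = 0.36), and at 190, 195 and 203 CPM in cKO RS against 143, 217 and 235 CPM in control RS (-0.01, adjusted p = 0.97, and -0.20, adjusted p = 0.037, without control RS replicate 2). A sum over the gene cannot check the deletion of 1 exon. Control Spc replicate 1 stood nearer to RS than the other control Spc libraries, with Spearman correlations over genes of 0.92 to 0.927 with the control RS libraries against 0.837 to 0.869. It held the lowest value of each of the 10 genes among the control Spc libraries. Without it 4 genes were called in Spc, 9 in control RS against Spc and 4 in the interaction, as many as with it, and Hnrnpl gave 0.50 in Spc and -2.87 in control RS against Spc. Late spermatid marker genes (10 of 10 in the table) took 2.36% to 2.92% of gene counts in control RS and 0.23% to 0.247% in cKO RS, so that the fractions compared as RS differed between genotypes in their markers. In bulk samples such as these, fewer cells of a type and less RNA per cell cannot be told apart.

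CPM levels follow trimmed mean of M-values (TMM) scaling, with 1 scale for the 12 Spc and RS libraries and another for the 7 CB libraries, while each fit scaled its own libraries alone, so that a fold change near 0 can differ in sign from the CPM beside it. In the control germ cells, most hnRNP and PTB genes were higher in spermatocytes. Of the 10, 9 were lower in control RS than in control Spc, and 4 of them by at least 1.5 on the log2 scale, against a background of 39.7% of all tested genes that were lower and 17.0% that were lower by that much. The median log2 difference of the 10 genes was -0.97, against -0.08 over all tested genes. All p values of genes and transcripts come from edgeR's quasi-likelihood test, two-sided, adjusted by the Benjamini-Hochberg method over all genes or transcripts of a comparison, and a call needed an adjusted p of at most 0.05. Errors of log2 fold changes are standard errors (SE).

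The steepest falls were in Hnrnpl, a reader of CA repeats, and Hnrnpm, a reader of GU-rich RNA. Hnrnpl stood at 167, 214 and 221 CPM in control Spc and at 30.1, 31.1 and 37.2 CPM in control RS. The groups lie far apart, and the RS mean was 16.3% of the Spc mean (log2 fold change -2.74, SE 0.14, adjusted p = 3.1e-05). Hnrnpm stood at 199, 236 and 238 CPM in control Spc and at 35.6, 37.9 and 46.8 CPM in control RS (-2.62, SE 0.14, adjusted p = 3.1e-05).

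Ptbp2, the PTB protein known from neurons and testis, and Hnrnpa2b1, a widely expressed nuclear RNA-binding protein, followed. Ptbp2 went from 149, 162 and 178 CPM in control Spc to 44.8, 45.9 and 49.5 CPM in control RS (-1.94, SE 0.09, adjusted p = 2.9e-05). Hnrnpa2b1 went from 306, 371 and 376 CPM to 105, 109 and 110 CPM (-1.83, SE 0.10, adjusted p = 3.1e-05). In both genes every RS library lay more than 2-fold below the lowest Spc library.

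Smaller differences were called in 5 further genes. The log2 fold changes were -0.99 for Hnrnph1 (SE 0.09), which binds G-runs, -0.95 for Ptbp3 (SE 0.09), the PTB paralog first known from blood cells, -0.90 for Hnrnpk (SE 0.08), a reader of C-rich RNA, and -0.56 for Hnrnpd (SE 0.07), also named AUF1, which binds AU-rich elements. Ptbp1, the broadly expressed PTB protein, differed least among the called genes: 123, 132 and 141 CPM in control Spc against 117, 118 and 130 CPM in control RS (-0.25, SE 0.09, adjusted p = 0.030), and the 2 groups overlapped. That call was lost with DESeq2 (adjusted p = 0.073) and without control Spc replicate 2 or 3 or control RS replicate 1 or 3 (adjusted p from 0.055 to 0.12).

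Hnrnpa1, the paralog of Hnrnpa2b1, was the exception, with 20.6, 21.2 and 23.4 CPM in control Spc and 20.2, 25.0 and 25.0 CPM in control RS (-0.03, SE 0.12, adjusted p = 0.84), where the CPM mean was higher in RS and the fitted change was near 0 with the other sign. Its values are uncertain in all comparisons. The gene tables held 0.445 to 0.493 times as many counts for it in Spc as the transcript tables did, a ratio that was 0.812 to 1.09 for the other members, and the gene is known for many processed pseudogenes of near-identical sequence.

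**Figure D1:**
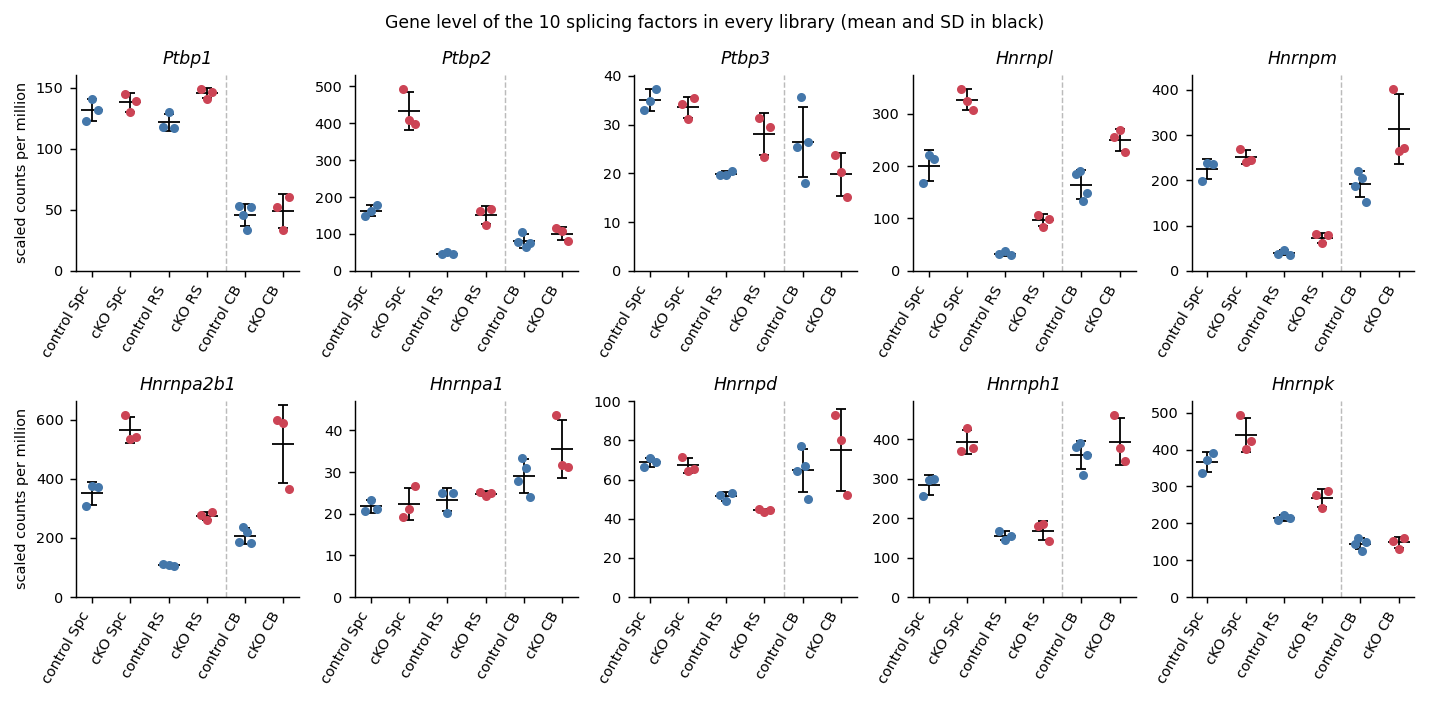
Gene level in scaled CPM of each of the 10 genes in every library, with the group mean and SD in black and the dashed line parting the CB libraries, which have a scale of their own. Hnrnpl falls from 167 to 221 CPM in control Spc to 30.1 to 37.2 CPM in control RS, and Ptbp2 is at 399 CPM or more in every cKO Spc library against at most 178 CPM in control Spc.

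Compared per kilobase of the exons of all annotated transcripts, retained introns included, the order of the levels was not the same in the 2 cell types. In control Spc, Hnrnpk (56.6 ± 4.20 CPM per kb, SD, n = 3), Hnrnpa2b1 (53.3 ± 5.99) and Hnrnph1 (48.7 ± 4.22) headed the order, each overlapping the next. Hnrnpl (33.7 ± 4.91), Hnrnpm (28.2 ± 2.80) and Ptbp1 (27.9 ± 1.90) came next and overlapped in the same way, followed by Ptbp2 (17.8 ± 1.55), Hnrnpd (9.36 ± 0.29), Hnrnpa1 (6.89 ± 0.48) and Ptbp3 (4.68 ± 0.30). In control RS, Hnrnpk (33.2 ± 1.11) stayed first, Hnrnph1 (26.7 ± 1.92) and Ptbp1 (25.6 ± 1.53) overlapped behind it, and Hnrnpa2b1 (16.4 ± 0.38) came next. Hnrnpa1 (7.42 ± 0.88) and Hnrnpd (6.98 ± 0.30) overlapped as well, and Hnrnpl (5.50 ± 0.64), Ptbp2 (5.09 ± 0.26) and Hnrnpm (5.04 ± 0.74) lay together above Ptbp3 (2.66 ± 0.07). On this scale Ptbp1 stood above Ptbp2 in both cell types of the controls. In Spc that order depends on the length used, which was 4740 bases for Ptbp1 and 9175 bases for Ptbp2, the latter including the 4047 bases of the retained-intron transcript Ptbp2-205, and in CPM not divided by length Ptbp2 was the higher of the 2 in control Spc. In cKO Spc, Ptbp2 (47.3 ± 5.66 CPM per kb) stood above Ptbp1 (29.0 ± 1.66), and in cKO RS Ptbp1 (30.7 ± 0.89) stood above Ptbp2 (16.5 ± 2.61), both with no overlap between the libraries of the 2 genes. The order in cKO RS depends on the length as well. In CPM not divided by length, Ptbp1 (141, 147 and 149) and Ptbp2 (124, 163 and 167) overlapped there.

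The first comparison of genotypes was made in Spc, before the haploid phase. Of the 10 genes, 4 rose in cKO Spc (background 14.0% of 17321 tested genes) and 0 fell (background 14.1%), also at an unadjusted p under 0.05 and with DESeq2, with a median log2 fold change of 0.10 against -0.01 over all tested genes. None reached 1.5 on the log2 scale.

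Ptbp2 changed most. It stood at 399, 409 and 493 CPM in cKO Spc against 149, 162 and 178 CPM in control Spc. Every cKO library was more than 2 times the highest control library, and the log2 fold change was 1.30 (SE 0.10, adjusted p = 0.00047). The other PTB genes gave no call: Ptbp1 had a log2 fold change of -0.05 with a 95% interval from -0.23 to 0.13, and Ptbp3 one of -0.17 with an interval from -0.40 to 0.07.

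Hnrnpl rose to 307, 325 and 347 CPM in cKO Spc from 167, 214 and 221 CPM (0.59, SE 0.11, adjusted p = 0.0098). Hnrnpa2b1 rose to 535, 542 and 614 CPM from 306, 371 and 376 CPM (0.58, SE 0.09, adjusted p = 0.0065). Hnrnph1 rose to 371, 379 and 428 CPM from 256, 297 and 300 CPM (0.36, SE 0.09, adjusted p = 0.029). The genotypes did not overlap in these 3 genes, nor in Hnrnpk and Hnrnpm. Every cKO library was above every control library in 6 of the 10 genes, Ptbp2 among them, as in 30.7% of all tested genes. That is 5316 of 17321 genes on the CPM scale of the 12 libraries. Every cKO library was below every control library in 3056 of them and in 0 members.

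The call for Hnrnph1 was lost without cKO Spc replicate 2 or 3 or control Spc replicate 2 or 3 (log2 fold changes from 0.305 to 0.398, adjusted p from 0.054 to 0.067), while the other 3 calls held in all alternatives run. The remaining genes gave -0.06 for Hnrnpa1, -0.14 for Hnrnpd, 0.06 for Hnrnpm and 0.15 for Hnrnpk, none past the threshold. Beside these results, late spermatid markers took 0.0498% to 0.156% of gene counts in cKO Spc and 0.428% to 0.838% in control Spc, Leydig markers 0.0659% to 0.142% and 0.0137% to 0.0484%, and spermatocyte markers 0.275% to 0.296% and 0.231% to 0.273%. Sertoli markers took 0.00272% to 0.00532% in cKO Spc and 0.00915% to 0.0231% in control Spc, spermatid markers 0.11% to 0.136% and 0.138% to 0.198%, macrophage markers 0.0124% to 0.0132% and 0.0139% to 0.0217%, and spermatogonia markers 0.00697% to 0.0128% and 0.00593% to 0.00774%, with no listed gene at 0. Their part in the results was not tested.

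In RS, the haploid cells that follow meiosis, 7 of the 10 genes rose in cKO (background 38.4% of 17492 tested genes) and 1 fell (background 34.3%). By at least 1.5 on the log2 scale 2 rose, against a background of 14.8%. The median log2 fold change was 0.42 for the 10 genes and 0.11 for all tested genes.

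Ptbp2 again headed the list, with 124, 163 and 167 CPM in cKO RS against 44.8, 45.9 and 49.5 CPM in control RS (1.71, SE 0.12, adjusted p = 7.6e-06). Hnrnpl was nearly level with it, at 83.8, 98.2 and 107 CPM against 30.1, 31.1 and 37.2 CPM (1.57, SE 0.12, adjusted p = 1.3e-05). Hnrnpa2b1 stood at 259, 278 and 286 CPM against 105, 109 and 110 CPM (1.35, SE 0.06, adjusted p = 9.8e-07). In each of these genes the lowest cKO library was more than 2 times the highest control library.

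Smaller rises were those of Hnrnpm (60.8, 78.4 and 80.5 CPM against 35.6, 37.9 and 46.8 CPM, log2 fold change 0.88, SE 0.14) and Ptbp3 (23.3, 29.6 and 31.4 CPM against 19.6, 19.6 and 20.5 CPM, 0.51, SE 0.13). Hnrnpk gave 0.33 (SE 0.08) and Ptbp1 0.27 (SE 0.07), the latter from 117 to 130 CPM in control RS to 141 to 149 CPM in cKO RS. These 4 genes also did not overlap between the genotypes, so that every cKO library was above every control library in 7 of the 10 genes, as in 40.0% of all tested genes.

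Hnrnpd was the gene that fell, from 48.9, 52.0 and 53.2 CPM in control RS to 43.6, 44.4 and 44.8 CPM in cKO RS (-0.20, SE 0.08, adjusted p = 0.041), and its direction turned to 0.42 when libraries were scaled by their size alone in place of TMM. Leaving out single libraries removed the call in 5 of 6 cases, the exception being control RS replicate 2 (adjusted p from 0.094 to 0.19 in the 5). The call was also lost without the filter on low counts (adjusted p = 0.074), with the replicate number as a block (adjusted p = 0.082) and with transcript counts summed per gene (adjusted p = 0.15). Hnrnph1 (0.12, SE 0.11) and Hnrnpa1 (0.09, 95% interval -0.17 to 0.36) gave no call, although Hnrnph1 passed (0.29, adjusted p = 0.020) without cKO RS replicate 3.

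Scaling by library size alone moved the median of all genes in RS from 0.11 to 0.73, and the share of calls that were higher from 52.8% to 76.0%. With TMM, Ptbp2 lay 1.60 above that median, Hnrnpl 1.46, Hnrnpa2b1 1.24 and Hnrnpm 0.77, and Hnrnpd lay 0.31 below it. With library size alone all 10 genes were called higher in cKO RS, as were 10232 of the 17492 tested genes. Of the 114 tested member transcripts 113 were called higher, beside 33542 of all 57133. Which scale is right for RS cannot be read from the counts.

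The cell markers moved with this comparison. Spermatocyte markers (12 of 12 in the table) took 0.126% to 0.145% of gene counts in cKO RS and 0.0614% to 0.068% in control RS, spermatid markers 0.185% to 0.211% and 0.346% to 0.363%, spermatogonia markers 0.00872% to 0.0142% and 0.00325% to 0.00421%, and Leydig markers 0.00382% to 0.0404% and 0.000667% to 0.000762%. Sertoli markers took 0.00255% to 0.00865% in cKO RS and 0.00147% to 0.0017% in control RS, and macrophage markers 0.0413% to 0.059% and 0.0387% to 0.0457%, with no listed gene at 0 in either group. The part of these markers' cells in the changes of the members was not tested.

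**Figure D2:**
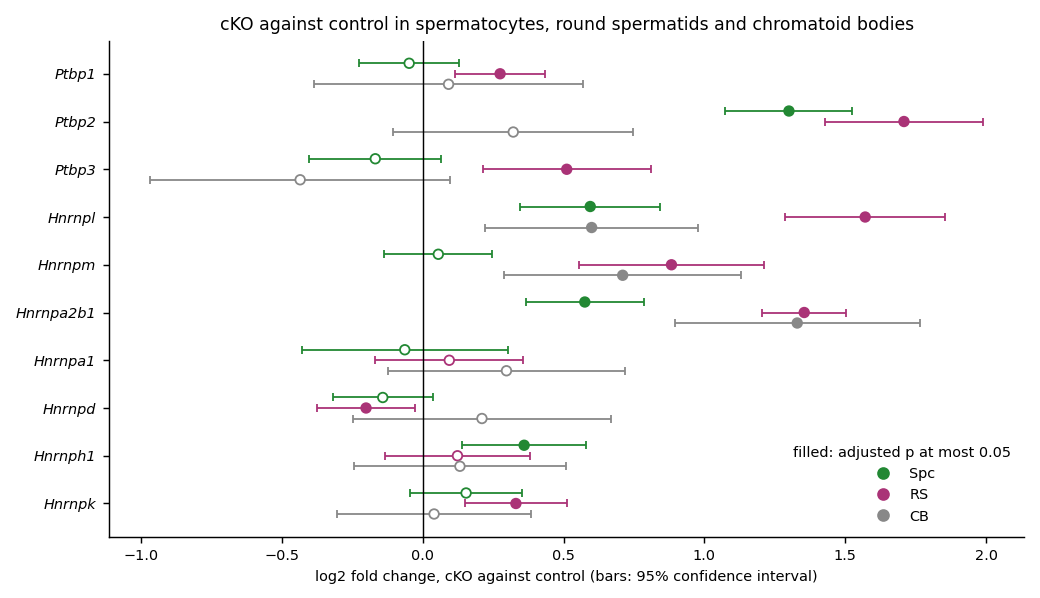
Log2 fold change of cKO against control for each gene in Spc (green), RS (purple) and CB (grey), with 95% confidence intervals as bars and filled points where the adjusted p was at most 0.05. Ptbp2 lies at 1.30 in Spc and 1.71 in RS but at 0.32 in CB, and Hnrnpa2b1 at 0.58, 1.35 and 1.33.

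Whether the effect of the genotype differed between the cell types was tested as an interaction in 1 fit over the 12 libraries. It was larger in RS than in Spc for 4 of the 10 genes (background 19.0%): Hnrnpl (0.86, SE 0.18, adjusted p = 0.0038), Hnrnpm (0.71, SE 0.18, adjusted p = 0.011), Hnrnpa2b1 (0.66, SE 0.12, adjusted p = 0.0022) and Ptbp3 (0.56, SE 0.16, adjusted p = 0.017). It was smaller in RS for 0 genes (background 24.1%), with 1 (Hnrnph1) at an unadjusted p under 0.05 and 0 with DESeq2. For Ptbp2 the difference of 0.29 (SE 0.17, adjusted p = 0.20) did not pass, although it passed (0.41, adjusted p = 0.040) without cKO RS replicate 2. The median of all genes was -0.13 in this fit, and it became 0.58 with library size alone, when 9 of the 10 genes passed (background 44.5% with that scaling).

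Within the cKO mice, RS were compared with Spc directly. Of the 10 genes, 7 were lower in cKO RS than in cKO Spc (background 26.4%), with a median log2 difference of -0.90 against 0.01 over all genes. This comparison shares its cKO libraries, and the previous one its control libraries, with the comparisons of genotypes, so the values are set side by side only.

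Hnrnpl gave -1.78 (SE 0.09) in cKO beside -2.74 in control, Hnrnpm -1.81 (SE 0.11) beside -2.62, Ptbp2 -1.54 (SE 0.12) beside -1.94 and Hnrnpa2b1 -1.06 (SE 0.07) beside -1.83. Hnrnph1 (-1.24 beside -0.99), Hnrnpk (-0.74 beside -0.90) and Hnrnpd (-0.63 beside -0.56) were lower in RS in both genotypes. Ptbp3 gave -0.28 (adjusted p = 0.11) in cKO beside -0.95 in control, and Ptbp1 0.06 (adjusted p = 0.52) beside -0.25.

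As levels, the Hnrnpl mean in cKO RS was 29.5% of that in cKO Spc, against 16.3% in the controls. The Ptbp2 mean in cKO RS was 34.9% of that in cKO Spc, against 28.7% in the controls, and it came to 92.8% of the control Spc mean: 124 to 167 CPM in cKO RS beside 149 to 178 CPM in control Spc. For Hnrnpa2b1 the cKO RS mean was 78.2% of the control Spc mean, for Hnrnpl 48.0% and for Hnrnpm 32.6%.

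**Figure D3:**
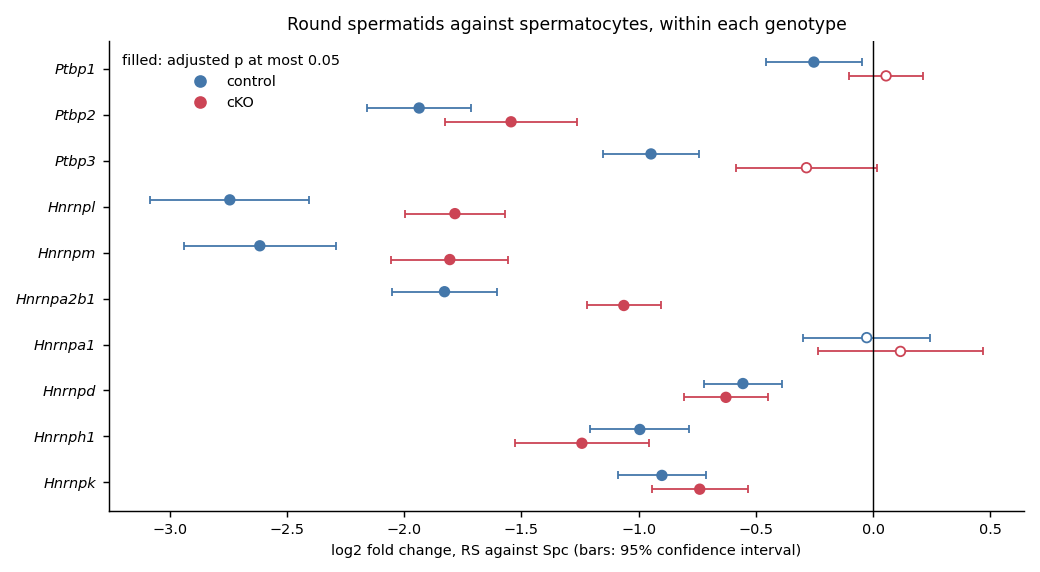
Log2 fold change of RS against Spc within control (blue) and within cKO (red) for each gene, with 95% confidence intervals as bars and filled points where the adjusted p was at most 0.05. Hnrnpl is at -2.74 in control and -1.78 in cKO, whereas Hnrnph1, at -0.99 and -1.24, does not show that order.

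The CB libraries hold RNA of the granule and not of whole cells. In CBs, 3 of the 10 genes rose in cKO (background 18.1% of 14051 tested genes) and 0 fell (background 18.4%), also at an unadjusted p under 0.05 and with DESeq2, with a median of 0.25 against 0.07 over all genes. Hnrnpa2b1 stood at 366, 588 and 598 CPM in cKO CBs against 181, 186, 219 and 237 CPM in control CBs (1.33, SE 0.20, adjusted p = 0.00036). Hnrnpm stood at 264, 272 and 402 CPM against 153, 187, 205 and 221 CPM (0.71, SE 0.20, adjusted p = 0.013). Hnrnpl stood at 226, 255 and 268 CPM against 133, 149, 185 and 191 CPM (0.60, SE 0.18, adjusted p = 0.017). None of these 3 overlapped between the genotypes, and every cKO library was above every control library in 19.0% of all tested genes.

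The calls for Hnrnpl and Hnrnpm were lost in some alternatives. CB libraries are numbered here in column order, and these numbers are not those of the sample titles. Without cKO CB replicate 1 only Hnrnpa2b1 passed, as it did with library size alone (background 11.3% with that scaling), and without cKO CB replicate 2 the adjusted p of Hnrnpl was 0.052, as it was without the filter on low counts (log2 fold change 0.51). The Spearman correlation of cKO CB replicate 1 over genes was 0.906 and 0.916 with the other cKO CB libraries and 0.877 to 0.909 with the control CB libraries, and its part was not tested. Ptbp2, the gene with the largest change in both cell types, stood at 80.7, 107 and 115 CPM in cKO CBs against 63.6, 74.6, 78.1 and 106 CPM (0.32, SE 0.20, adjusted p = 0.22), and these groups overlapped. Ptbp3 gave -0.44 (95% interval -0.97 to 0.10), Ptbp1 0.09 (-0.39 to 0.57), Hnrnpa1 0.30, Hnrnpd 0.21, Hnrnph1 0.13 and Hnrnpk 0.04. Under library size alone Ptbp1, Hnrnph1 and Hnrnpk took the opposite sign, without a call. Late spermatid markers took 0.0414% to 0.0651% of gene counts in cKO CBs and 0.277% to 0.593% in control CBs. Spermatid markers took 0.0248% to 0.0375% in cKO CBs and 0.057% to 0.0918% in control CBs, spermatocyte markers 0.0906% to 0.147% and 0.0869% to 0.159%, and spermatogonia markers 0.00417% to 0.00976% and 0.00247% to 0.00288%. Leydig markers took 0.00531% to 0.0433% and 0.00191% to 0.00565%, macrophage markers 0.0116% to 0.0145% and 0.0185% to 0.0194%, and Sertoli markers 0.002% to 0.00246% (Fshr at 0 in all cKO CBs) and 0.0015% to 0.00207%. The part of these markers was not tested.

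Expected counts of annotated transcripts were tested in the same way, and the members gave 41 of 116 tested transcripts higher in cKO Spc (background 16.1%), 82 of 114 in cKO RS (background 38.9%) and 20 of 92 in cKO CBs (background 17.8%), with 0 lower in each by edgeR or DESeq2 and 0, 0 and 1 lower at an unadjusted p under 0.05. The count in Spc was 22 to 29 when single libraries were left out. It was lowest without cKO Spc replicate 3, where 5204 of all 56096 tested transcripts rose, against 9285 of 57631 with all libraries. The count in CBs was 2 of 92 with library size alone (background 2.48% with that scaling) and 12 without the filter (background 7.13%). It was 14 to 23 when single libraries were left out. Of the 114 tested in the controls, 102 were lower in RS than in Spc (background 41.4%), and of the 116 tested in cKO, 87 were (background 27.7%). Reads that match several transcripts of a gene were shared among them by the authors, so that the transcripts of a gene are not independent and 1 change in a gene counts many times.

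All 13 tested Ptbp2 transcripts rose in both cell types, by 0.51 to 1.59 in Spc and by 0.91 to 1.93 in RS on the log2 scale. In Hnrnpl, 12 of 13 rose in Spc and 13 of 13 in RS (1.04 to 1.80). All 8 of Hnrnpm, all 21 of Hnrnpk (0.38 to 0.49) and all 16 of Ptbp1 (0.28 to 0.49) rose in RS, and 0 of them passed in Spc, where those of Hnrnpk lay at 0.13 to 0.24. Of the 18 of Hnrnph1, 13 rose in Spc and 1 in RS. The difference between the cell types was not tested for transcripts, and in the gene-level interaction it did not pass for Hnrnpk (0.05, adjusted p = 0.76), Ptbp1 (0.20, adjusted p = 0.15) or Hnrnph1. All 3 of Hnrnpa2b1 rose in both cell types, and 6 of 9 of Ptbp3 and 1 of 2 of Hnrnpa1 rose in RS while 0 of either passed in Spc. None of the 11 tested transcripts of Hnrnpd passed in either cell type, also at an unadjusted p under 0.05 and with DESeq2. With library size alone, Hnrnpd-204, Hnrnpd-205, Hnrnpd-208 and Hnrnpd-209 passed in RS, higher in cKO (0.38 to 0.39). In CBs the 20 calls were 7 of 8 transcripts of Hnrnpm, 6 of 13 of Hnrnpl, 3 of 3 of Hnrnpa2b1, 2 of 2 of Hnrnpa1 and 1 each of Hnrnpd and Hnrnpk.

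**Figure D4:**
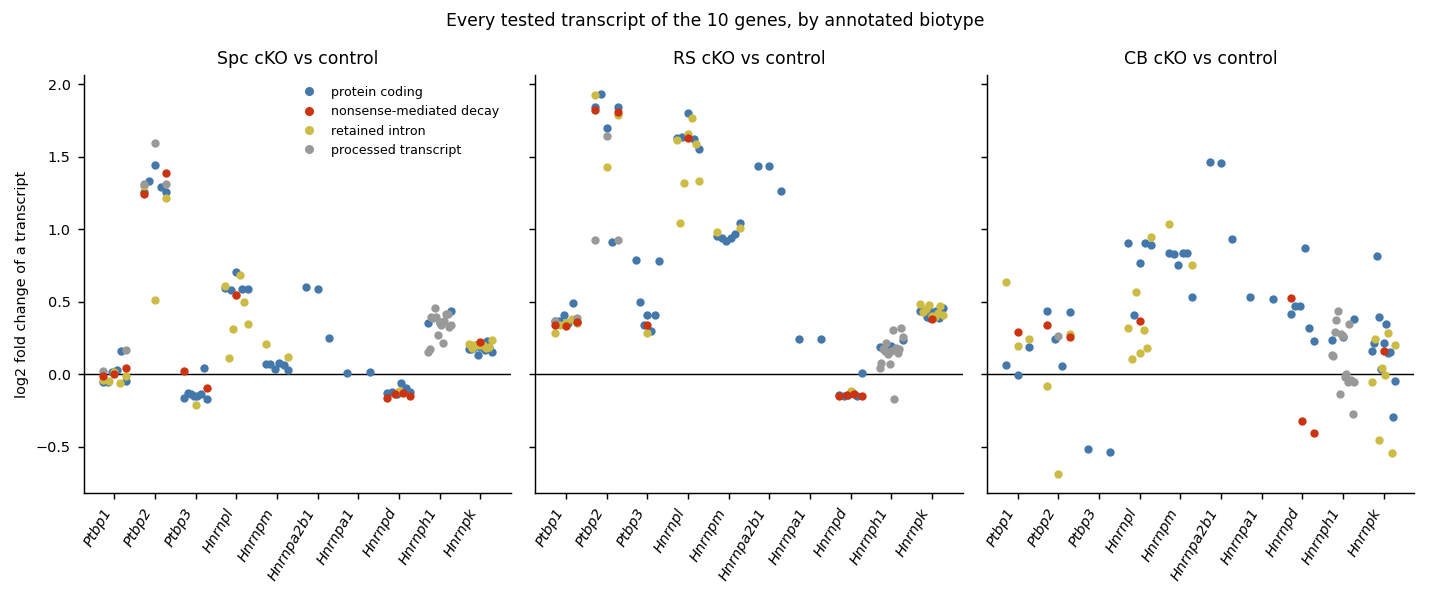
Log2 fold change of cKO against control for every tested transcript of the 10 genes in Spc, RS and CB, each point a transcript coloured by its annotated biotype. In RS the 13 Ptbp2 transcripts lie between 0.91 and 1.93, with Ptbp2-208 of the nonsense-mediated decay biotype (red) at 1.81 and the protein-coding Ptbp2-213 at 1.84, while in CBs the Ptbp2 transcripts lie between -0.69 and 0.43 and those of Hnrnpd between -0.40 and 0.87.

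The transcripts annotated as NMD targets were followed separately. In Spc, 3 of 13 rose (background 16.1% of all tested transcripts): Ptbp2-208 (1.39, SE 0.11, adjusted p = 0.00077), Ptbp2-206 (1.24, SE 0.10, adjusted p = 0.0011) and Hnrnpl-213 (0.55, SE 0.11, adjusted p = 0.014). In RS, 7 of 12 rose (background 38.9%): Ptbp2-206 (1.82), Ptbp2-208 (1.81), Hnrnpl-213 (1.63), Hnrnpk-203 (0.38), and Ptbp1-212, Ptbp1-201 and Ptbp1-207 (0.36, 0.34 and 0.33). With DESeq2 5 of 12 passed in RS, without Ptbp1-212 (adjusted p = 0.22) and Ptbp1-207 (adjusted p = 0.090), against a background of 31.4% by DESeq2. Hnrnpk-203, Ptbp1-207 and Ptbp1-212 each lost their call without control RS replicate 1 or 3 (adjusted p from 0.051 to 0.12), and Hnrnpl-213 lost its call in Spc without cKO Spc replicate 1 (adjusted p = 0.052). Ptbp3-213 gained a call in RS without cKO RS replicate 2 (0.54, adjusted p = 0.016) and with library size alone (0.87, adjusted p = 0.0014). In CBs 0 of 8 rose (background 17.8%) by edgeR or DESeq2, and 0 at an unadjusted p under 0.05, with Hnrnpl-213 nearest to a call (0.37, adjusted p = 0.11), although Hnrnpd-205 passed (0.84, adjusted p = 0.027) without cKO CB replicate 3. The 4 transcripts of Hnrnpd with this biotype lay between -0.15 and -0.14 in RS and did not pass. With library size alone they lay at 0.38 to 0.39 and passed.

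By library, the exon-skipping Ptbp2-208 held 46.4, 46.8 and 56.9 CPM in cKO Spc against 16.3 to 20 CPM in control Spc, and 14.9, 19.9 and 20.2 CPM in cKO RS against 5.26, 5.28 and 5.73 CPM in control RS. Its exon-including counterpart Ptbp2-213, the protein-coding transcript with the highest mean count, held 107, 110 and 128 CPM against 41.6, 45.3 and 50.3 CPM in Spc, and 34.5, 45.0 and 46.9 CPM against 11.4, 11.7 and 13.5 CPM in RS. In RS the 2 forms rose by 1.81 and 1.84 on the log2 scale. Reads that match both were split between them, so that these values are not separate measurements of the 2 forms.

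Hnrnpl-213, with the extra exon shown above, held 11.2, 13.2 and 14.6 CPM in cKO RS against 3.87, 4.13 and 5.08 CPM in control RS. The coding transcript Hnrnpl-209 held 11.5, 13.8 and 14.6 CPM against 4.13, 4.19 and 5.11 CPM. The values of the 2 transcripts nearly coincide in RS, and reads that match both were split between them. In CBs, Hnrnpl-213 held 19.7, 22.6 and 23.5 CPM in cKO against 13.9, 16.4, 18.1 and 19.8 CPM in control, and Hnrnpl-209 held 38.8, 40.1 and 48.2 CPM against 18.9, 20.7, 23.9 and 26.4 CPM. The 2 transcripts overlapped in control CBs and not in cKO CBs, and the usage of neither passed the test.

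The usage of each transcript, meaning its change relative to the other transcripts of its gene, was tested with edgeR's diffSpliceDGE. None of the member transcripts changed usage at an adjusted p of at most 0.05: 0 of 116 in Spc (background 0.0324% of all tested transcripts), 0 of 114 in RS (background 1.17%) and 0 of 92 in CBs (background 0.406%). At an unadjusted p under 0.05 there were 2, 4 and 7, and the lowest adjusted p values were 0.36, 0.098 and 0.24. The usage of the transcripts with the nonsense-mediated decay biotype moved by -0.02 to 0.12 in Spc, -0.19 to 0.05 in RS and -0.53 to 0.14 in CBs on the log2 scale.

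In shares, transcripts of that biotype held 17.0%, 17.2% and 17.2% of the Ptbp2 transcript counts in control Spc and 17.8%, 17.8% and 18.1% in cKO Spc, and 16.5%, 16.8% and 17.6% in control RS and 17.5%, 17.7% and 17.8% in cKO RS. Those of Hnrnpl were 11.6%, 11.9% and 11.9% in control Spc, 11.9%, 12% and 12.2% in cKO Spc, 11.5%, 11.8% and 12% in control RS and 12.1%, 12.4% and 12.6% in cKO RS. The genotypes did not overlap for Ptbp2 in Spc and for Hnrnpl in RS. Elsewhere the genotypes did not overlap for Ptbp3 in RS (5.91% to 6.67% in control and 4.88% to 5.63% in cKO), nor for Hnrnpk in Spc (3.26% to 3.31% and 3.34% to 3.41%). In CBs, Hnrnpd held 24.5% to 29.6% in control and 20.3% to 22.8% in cKO, Hnrnpl 8.59% to 9.25% and 6.16% to 8.11%, and Ptbp3 4.87% to 5.66% and 6.19% to 8.26%, also without overlap. The Ptbp3 shares in cKO CBs are parts of only 53, 91 and 96 transcript counts. Its transcripts of that biotype had too few counts in CBs to enter the test of usage. In the other combinations of the 6 genes that have such transcripts with Spc, RS or CBs, the genotypes overlapped or met at the printed digits. The genotypes parted in both directions, and how often such shares part over all genes was not computed. These separations are therefore a description only. The shares themselves were not tested beyond the test of usage. Since the counts were summed over whole transcripts, with shared reads split among them, a gain in the reads over 1 junction would be diluted in such a share, and reads over the junctions printed above were not analysed here.

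**Figure D5:**
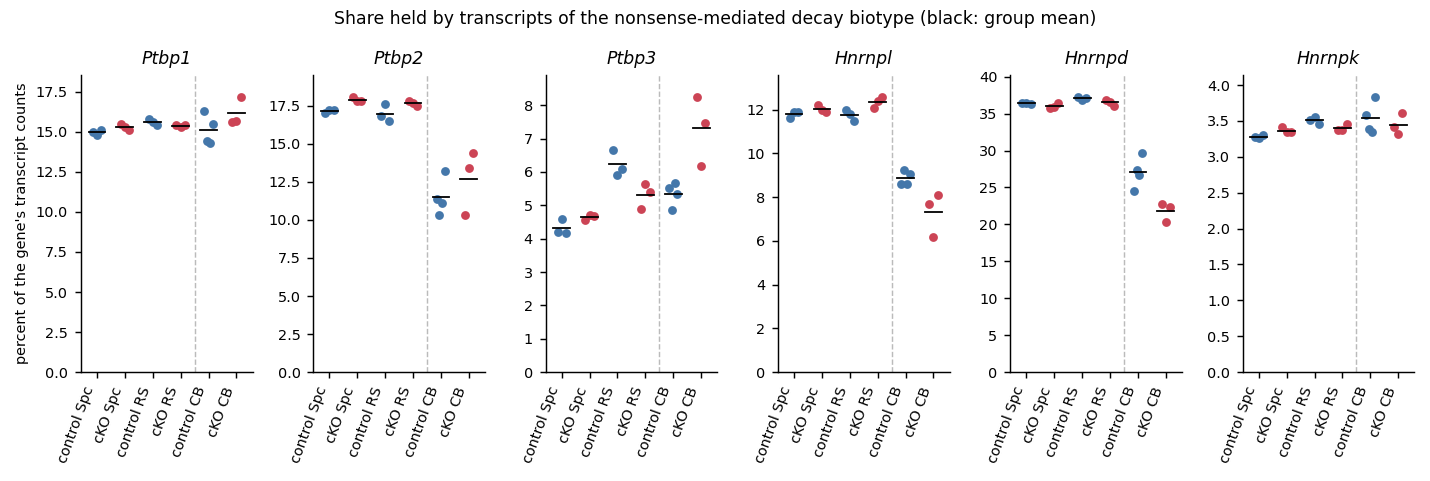
Percent of a gene's transcript counts held by its transcripts of the nonsense-mediated decay biotype in every library of the 6 genes that have such transcripts in the tables, with group means in black and the dashed line parting the CB libraries. The Ptbp2 share is 17.0% to 18.1% in all 6 Spc libraries, and the Hnrnpl share is 11.5% to 12.6% in all 6 RS libraries.

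Hnrnpa2b1 has no transcript of that biotype in the tables, but its protein-coding transcripts differ in the same respect. In Hnrnpa2b1-202 the last exon junction lies 157 bases after the stop codon, while in Hnrnpa2b1-201 and Hnrnpa2b1-203 it lies 21 bases after it. The log2 fold changes of 201, 202 and 203 were 0.60, 0.59 and 0.25 in Spc, 1.44, 1.43 and 1.27 in RS and 1.46, 1.46 and 0.93 in CBs. All 9 values passed the test, and none of the 3 transcripts passed the test of usage in any of the comparisons.

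The rest of the family was listed beside the 10 genes. Of 21 other hnRNP family genes, 4 rose and 2 fell in cKO Spc (background 14.0% and 14.1%), 12 rose and 7 fell in cKO RS (background 38.4% and 34.3%), and 11 rose and 0 fell in cKO CBs (background 18.1% and 18.4%) (1 lower at an unadjusted p under 0.05 and 0 with DESeq2), with medians of 0.10, 0.31 and 0.69. The shares in Spc were near the background. In the controls, 12 were lower in RS than in Spc (background 39.7%) and 4 higher (background 36.2%), and in cKO 14 were lower (background 26.4%) and 2 higher (background 18.9%). In the interaction, the effect of the genotype was larger in RS for 4 of the 21 (background 19.0%) and smaller for 7 (background 24.1%). Of 3 partner proteins of PTB, 1 rose in Spc and 2 in RS, and 0 of the 2 tested passed in CBs by edgeR, by DESeq2 or at an unadjusted p under 0.05.

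Hnrnpll, the paralog of Hnrnpl that is known for splicing in lymphocytes, changed by more than any of the 10 genes. It stood at 1240, 1250 and 1380 CPM in cKO Spc against 170, 182 and 190 CPM in control Spc (2.73, a 6.63-fold rise, SE 0.07, adjusted p = 1.7e-05). In RS it stood at 828, 922 and 932 CPM against 125, 130 and 130 CPM (2.81, SE 0.07), and in CBs at 630, 905 and 1410 CPM against 88.4, 116, 124 and 127 CPM (3.11, SE 0.26). Its effect did not pass as different between Spc and RS (-0.04, SE 0.10, adjusted p = 0.76), although with library size alone the difference turned to 0.67 and passed (adjusted p = 0.00015). Of the other listed genes, Hnrnpul2 was called at 1.5 or more between the genotypes, in CBs (1.56, SE 0.26).

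Across the 12 Spc and RS libraries, the genes most like the PTB genes in level were named as a description, from 7441 genes with a mean log2 CPM over 4. For Ptbp2 these were Bclaf1 (Pearson's r = 0.994), Bbs9 (0.993) and Dvl1 (0.992), for Ptbp3 Tpx2 (0.986), Pak2 (0.98) and Prmt1 (0.979), and for Ptbp1 Zdhhc7 (0.942), Arf1 (0.936) and Bcar1 (0.934). The libraries fall into 4 groups, so that such values follow from the group means.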

How the data were processed

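Libraries were trimmed with cutadapt 2.8 and aligned to GRCm38 with STAR 2.7.1a per the labels. The deposited gene tables hold whole-number counts that the authors made with TEtranscripts. The deposited transcript tables hold expected counts made by the authors with featureCounts 2.0.1, in which a read is split among the overlapping transcripts and reads of several positions are left out. They were rounded to whole numbers. Precision rests on 38129415 to 49940226 counts per Spc or RS library and 3965541 to 16699210 per CB library. Samples were grouped from their labels. The design text names both testes of a mouse as the source of Spc and RS while the methods name several testes, and no label ties a spermatocyte library to a spermatid library. CB samples were pooled from several mice, and by the methods the Spc and RS fractions may have been pooled as well. The p values therefore measure only the spread between the libraries, which may in part be technical.

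Genes needed 10 counts and transcripts 20 counts in at least 3 libraries. Fits used edgeR 4.0.16 (TMM, quasi-likelihood, diffSpliceDGE for usage) in R 4.3.3, with a call at an adjusted p of at most 0.05. Alternatives were DESeq2 1.42.0, library size alone, no filter, transcript counts summed per gene, the replicate number as a block, and leaving out single libraries. Of the table's transcripts, 98.0% were found in GENCODE vM21, which gave biotypes, exons and gene lengths. Tested on simulated data with a log2 fold change of 1, 58.9% of the changed genes were recovered in Spc, 61.5% in RS and 67.0% in CBs, and for usage 42.7%, 64.0% and 20.3% of the changed transcripts. The simulation changed only features with higher counts and drew each transcript on its own, without split reads. Its recovery for usage may therefore not hold for the real counts. The 10 genes, the other lists and the markers were chosen with earlier results of these data known. Named genes and transcripts were taken from the 10 genes and Smg6, their transcripts of the decay biotype, their highest protein-coding transcripts and the 3 largest transcript changes per comparison, and listed family genes at a log2 fold change of 1.5 or more in cKO against control. Small RNA libraries and transposable elements were not used here.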

Additional observations from a re-analysis of the deposited data

Results flagged for a closer look

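The effect of the genotype differed between RS and Spc, by the interaction test of edgeR, in 4 of the 10 genes, each with a larger log2 fold change in RS: Hnrnpl by 0.86, Hnrnpm by 0.71, Hnrnpa2b1 by 0.66 and Ptbp3 by 0.56. Of all tested genes, 19.0% had a larger change in RS and 24.1% a smaller one. For Hnrnpl and Hnrnpa2b1 the cKO level was higher in both cell types, and for Hnrnpm and Ptbp3 it passed in RS and not in Spc. The median of all genes in this fit was -0.13. With library size alone it was 0.58, and 9 of the 10 genes passed (background 44.5% with that scaling). Spermatocyte markers took 0.126% to 0.145% of gene counts in cKO RS and 0.0614% to 0.068% in control RS, and their part in the difference was not tested.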

How the results depend on the processing

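Of the single values, 1438 kept their side of the threshold, some without a call changing sign, 40 lost a call, 21 gained one and 8 turned with a call under 1 or both of the settings compared. These 8 did so with library size alone: in RS Hnrnpd (0.42), Hnrnpd-208 (0.39), Hnrnpd-209 (0.39), Hnrnpd-204 (0.38), Hnrnpd-205 (0.39) and Smg6 (0.62), and in the interaction Hnrnpd (0.53) and Hnrnpll (0.67). With library size alone the members called were 1 gene and 2 transcripts in CBs (3 and 20 with TMM) and 9 genes in the interaction (4 with TMM). Without the filter, 12 transcripts were called in CBs. Leaving out 1 library at a time gave 3 to 4 genes in Spc, 7 to 8 in RS, 1 to 3 in CBs (1 without cKO CB replicate 1), 8 to 9 in control RS against Spc, 7 in cKO RS against Spc and 4 to 5 in the interaction. For transcripts it gave 22 to 29 in Spc against 41 with all libraries. The lowest count came without cKO Spc replicate 3, where 5204 of all 56096 tested transcripts rose, against 9285 of 57631 with all libraries. Leaving out 1 library at a time gave 63 to 99 transcripts in RS and 14 to 23 in CBs. For usage it gave 0 in Spc, 0 to 1 in RS (1 without cKO RS replicate 2) and 0 to 1 in CBs (1 without cKO CB replicate 1). The cause was not tested.

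Same-numbered libraries did not deviate together in all pairs (correlations from -0.37 to 0.60), so the numbers were not taken as pairing. With the replicate number as a block, 4 genes were called in Spc, 7 in RS (Hnrnpd, at an adjusted p of 0.082, was not), 9 and 8 in the comparisons of RS with Spc in control and cKO, and 4 in the interaction, with 35, 73, 100 and 89 transcripts and 0 for usage in Spc and RS. No paired analysis was possible for CBs because the numbers in their column names do not match those of the sample titles, so that no column could be tied to a numbered sample. At the depth of the CB libraries 14051 genes and 30623 transcripts had enough counts to be tested, against 17321 and 57631 in Spc.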
